A study of Mus musculus with 4 samples.

Results

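The cadherins, transcription factors and matrix genes of the epithelial to mesenchymal transition (EMT) were examined in RNA-seq data from mouse embryonic stem cells (mESCs). The 10 genes were chosen by name, and each matched 1 row of the deposited count table of 37310 genes. They are *Cdh1*, *Cdh2*, *Epcam*, *Vim*, *Fn1*, *Snai1*, *Snai2*, *Zeb1*, *Zeb2* and *Twist1*. The study compared HATX WT mESCs with *Spen* KO clone 2, a clone whose *Spen* deletion the study describes in one place as full and in another as covering most of the gene. The study asked in these libraries whether RNA of endogenous retroviral repeats rises without the repressor protein Spen, and the gene counts come from the same libraries. The study describes the line as haploid. Both lines carry an *Xist* transgene on the X chromosome that responds to doxycycline, and the labels record a mixed genomic background and name no treatment. Cells of both lines grew on gelatin in medium with serum and LIF, a cytokine that maintains self-renewal. Each group had 2 libraries, which nothing in the labels ties to separate cultures, so the p-values measure only the spread between these libraries. Because each group is 1 line and the KO is 1 clone, other differences between the lines cannot be told apart from the loss of Spen.

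Library totals ran from 36667685 to 61908422 counts, and log2 normalized counts of 13306 genes correlated at 0.995 and 0.996 between libraries of a group. *Spen* itself had more counts in the libraries labelled KO, by 1.05 ± 0.21 (SE, n = 2 per group) on the log2 scale. Gene-level counts do not resolve the deleted exons, so the deletion itself was not checked here. The group is called KO-labelled, and directions are given by that label. The stem cell identity of the cells could be checked: the 8 pluripotency markers, among them *Pou5f1*, *Nanog* and *Sox2*, summed to between 179547 and 192826 normalized counts in every library, with 1 of the 8 (*Zfp42*) higher in the test described next, a call that was lost when any 1 library was left out. With chromosome medians set to 0, *Zfp42* did not pass and *Esrrb* and *Klf4* were higher.

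Epithelial cells hold together through E-cadherin, whose outer part binds the same protein on the next cell and whose tail is tied to actin by catenins. In EMT these contacts loosen, and cells make more N-cadherin, vimentin and fibronectin. The SNAI, ZEB and TWIST proteins are transcription factors that drive this change, in part by binding E-box sequences and repressing epithelial genes such as that of E-cadherin. The same switch takes place in the embryo when cells of the epiblast enter the primitive streak, while mESCs grow as compact, E-cadherin-bound colonies. Counts were compared with DESeq2, and a gene passed at a Benjamini-Hochberg adjusted p under 0.05 over all 17710 genes tested. By this rule 16.4% of all genes tested were higher and 15.8% were lower in the KO-labelled libraries. At the study's own thresholds of a 2-fold change and an adjusted p under 0.001, 4.51% of genes were called, 1.36% higher and 3.15% lower.

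Of the 10 genes, *Epcam*, *Vim* and *Twist1* fell, *Zeb1* rose, and the other 6 did not pass. The 4 that passed compare with 32.3% of all genes tested, and the share that passed rose with the count, from 14.8% of genes with a mean of 30 to 100 normalized counts to 49.0% of genes with at least 1000. The number that passed is thus close to the background, and the results are those of single genes. The groups did not overlap in 8 of the 10 genes, against 70.2% of all genes tested. They were lower in 6 and higher in 2, where 34.8% and 35.4% of all genes did so. The median log2 fold change of the 10 was -0.40, and that of all genes tested was 0.00 (0.00489). Of the 4, *Vim* alone also met the study's thresholds.

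**Figure D1:**
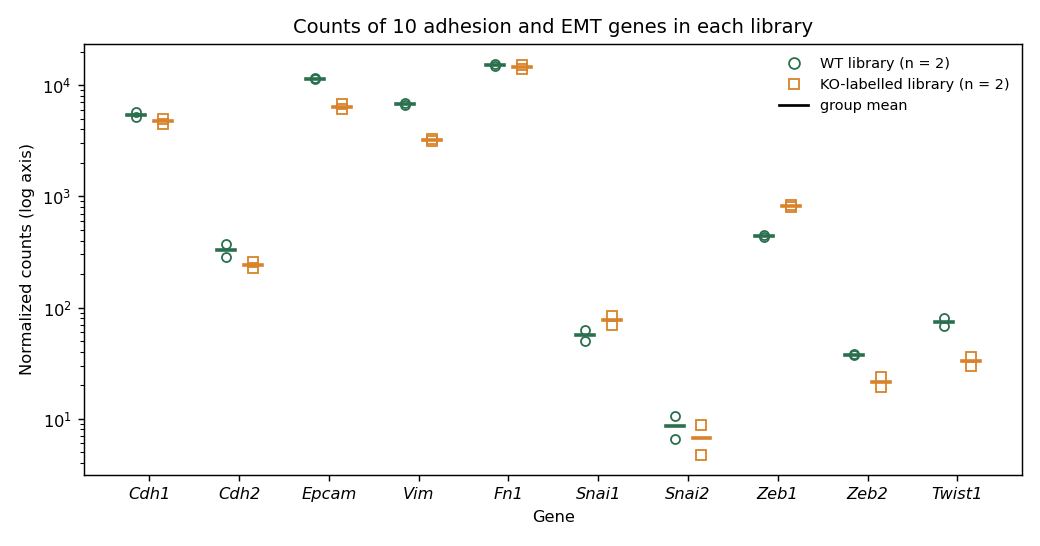
Normalized counts (log axis) of the 10 genes in each of the 2 WT libraries (circles) and 2 KO-labelled libraries (squares), with lines at the group means. The groups stand clearly apart for *Epcam*, *Vim*, *Zeb1* and *Twist1*, and they overlap for *Fn1* and *Snai2*.

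The promoter letters that ZEB and SNAI factors can bind were looked up as a description. The E-box searched was CAGGTG, which reads CACCTG on the other strand. RefSeq promoter windows (build GRCm38.p6, 250 bases before to 50 after the start site) were at hand for *Epcam*, *Vim*, *Snai1*, *Zeb2* and *Twist1*. No window was at hand for *Cdh1*. An E-box was found in 20.2% of all 32851 windows, and at least 2 were found in 2.88%. The window of *Epcam* held 2, of which the first letters lay 187 and 19 bases before the start site, and that of *Snai1* held 1, at 126 bases before it. None was found in the windows of *Vim*, *Zeb2* and *Twist1*. The 250 bases upstream of the start sites of *Epcam* (chr17:87635729-87635978, plus strand) and *Vim* (chr2:13574061-13574310, plus strand) are shown because both genes fell and only the first holds E-boxes, which are in capitals. A match is a sequence of letters, and no binding was measured. Whether these letters bear on the change of any gene was not tested.
*Epcam*: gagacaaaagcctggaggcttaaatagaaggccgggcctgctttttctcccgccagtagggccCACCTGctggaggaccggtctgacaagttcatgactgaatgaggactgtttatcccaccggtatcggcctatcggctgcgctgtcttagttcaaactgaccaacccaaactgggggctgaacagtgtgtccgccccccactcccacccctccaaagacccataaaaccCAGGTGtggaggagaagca
*Vim*: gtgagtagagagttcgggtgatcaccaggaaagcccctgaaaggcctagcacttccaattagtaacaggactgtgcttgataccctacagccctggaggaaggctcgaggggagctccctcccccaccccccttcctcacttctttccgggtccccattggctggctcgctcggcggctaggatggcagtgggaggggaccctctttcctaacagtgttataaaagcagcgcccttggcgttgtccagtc

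The surface adhesion genes differed in how they changed. *Epcam*, which encodes an adhesion molecule of epithelial and embryonic stem cells, fell clearly. The WT libraries gave 11407 and 11525 normalized counts for it, against 6056 and 6709 in KO-labelled libraries. Both WT libraries were thus far above both KO-labelled ones, and here as in all bulk RNA, fewer cells of a type and less RNA per cell cannot be told apart. The fall was 1.80-fold (log2 fold change -0.85 ± 0.08, SE; DESeq2 adjusted p = 8.79e-27). *Epcam* lies on chromosome 17 (88035319 to 88050446, plus strand, build mm9), where the median gene had a log2 fold change of -0.14. With the medians of all chromosomes set to 0, the value for *Epcam* was -0.71.

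*Cdh1*, which encodes E-cadherin, was somewhat lower but did not pass. The WT libraries gave 5184 and 5686 normalized counts for it, against 4954 and 4484 in KO-labelled libraries. The lowest WT library was close to the highest KO-labelled one, although the groups did not overlap. The log2 fold change was -0.20 ± 0.09 (SE; 95% interval -0.37 to -0.04; DESeq2 adjusted p = 0.0539). That call depended on the setting: the adjusted p was 0.0328 with edgeR and 0.00227 with chromosome medians set to 0, in a range of 0.00227 to 0.497 over 12 alternatives. The whole interval lies above the log2 fold change of *Epcam*. *Cdh1* is on chromosome 8 (109127251 to 109194146, plus strand).

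*Cdh2* (chromosome 18, 16747386 to 16967755, minus strand), which encodes the N-cadherin of mesenchymal and neural cells, was present at far lower counts. It had 285 and 370 normalized counts in WT and 255 and 225 in KO-labelled libraries. The groups did not overlap, and the WT libraries differed from each other by more than the nearest libraries of different groups did. It differed by -0.45 ± 0.22 (SE) on the log2 scale. The DESeq2 adjusted p was 0.108 and ran from 0.0287 (edgeR) to 0.686 over the alternatives. A near-identical copy elsewhere in the genome covers 20.3% of the exonic bases of *Cdh2*, so its counts are uncertain. Per kilobase of exon, *Cdh1* exceeded *Cdh2* by 32.1-fold and 27.1-fold in WT, against 34.3-fold and 35.1-fold in KO-labelled libraries. The log2 ratio was thus higher by 0.23 in the KO-labelled group, with an exact permutation p of 0.33 (two-sided), the smallest that 2 against 2 libraries allow. The ratios of the groups did not overlap, and with 2 libraries a group this test cannot pass, whatever the shift.

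Most other cadherins did not pass. Of 20 further cadherin genes 11 were tested, of which 3 were lower (27.3%, against 15.8% of all genes tested), 0 were higher and 8 did not pass (median log2 fold change -1.005). Most of those tested had a mean under 50 normalized counts, so this median rests mostly on genes with few counts. At an unadjusted p under 0.05, 1 was higher, and edgeR called 1 higher. That was *Cdh22*, named after its values were seen, with 2.65, 0, 10.4 and 16.4 normalized counts in WT and then KO-labelled libraries. The most abundant, *Cdh3* (P-cadherin), fell from a mean of 2353 ± 147 normalized counts (SD, n = 2) to 1171 ± 116, 2.01-fold lower. *Cdh4* (R-cadherin) fell by 0.88 on the log2 scale. The third to pass was *Cdh13*, outside the naming rule, with 26.5 and 30.5 normalized counts in WT and 3.48 and 1.56 in KO-labelled libraries. With any 1 library left out or with halved counts, DESeq2 filtered *Cdh13* out as too low and gave it no adjusted p. Of the summed cadherin level per kilobase, *Cdh1* made up 57.5% and 61.2% in WT, against 70.1% and 65.9% in KO-labelled libraries, while *Cdh3* made up 31.2% and 27.7% against 17.6% and 21.1%. Both shares separated the groups, as the counts of 70.2% of all genes tested did. They are parts of 1 total and not 2 separate results. Per kilobase, the mean of *Cdh1* itself was lower (1188 in WT, 1032 in KO-labelled libraries), and that of *Cdh3* went from 588.9 to 293.2.

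Genes that tie cadherins to the cell interior were mixed. Of 13 catenins and cadherin partners tested, 4 were lower and 1 was higher (30.8% and 7.69%, against 15.8% and 16.4% of all genes tested). The median log2 fold change was -0.25. The core members beta-catenin (*Ctnnb1*), alpha-catenin (*Ctnna1*) and p120-catenin (*Ctnnd1*), chosen after their values were seen except for the first, had log2 fold changes of 0.15, -0.00 (-0.00208) and -0.12 and did not pass, although *Ctnnd1* did with chromosome medians set to 0 (-0.23). *Pvrl3*, which encodes the adhesion protein nectin-3, fell from a mean of 2662 ± 399 normalized counts (SD, n = 2) to 665 ± 54.3, 4.01-fold lower. *Vcl* (vinculin, which links junctions to actin) fell by 0.74 on the log2 scale and *Ctnnd2* (delta-catenin) by 0.91, which no longer passed when any 1 library was left out or with halved counts. The catenin gene *Arvcf* rose by 0.42 on the log2 scale, and by 0.66 with chromosome medians set to 0.

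Many tight junction and desmosome genes were lower. Of 20 tested, 10 were lower and 2 higher (50% and 10%, against 15.8% and 16.4% of all genes tested). The median log2 fold change was -0.62. With chromosome medians set to 0, 0 were higher, and 1 was higher without WT replicate 1 or either KO-labelled library. *Cldn3* (a claudin, the sealing protein of tight junctions) fell from a mean of 134 ± 6.86 normalized counts (SD, n = 2) to 41.5 ± 3.28 (log2 fold change -1.69 ± 0.37, SE). The junction protein genes *Cgn* (cingulin) and *Tjp3* fell by 1.48 and 1.38 on the log2 scale. Their values were -1.57 and -1.03 with chromosome medians set to 0. The scaffold gene *Tjp1* rose by 0.23 on the log2 scale. Its rise did not pass once chromosome medians were set to 0, where the value was 0.14, or without WT replicate 1 or either KO-labelled library. *Cldn7*, whose protein is known to bind that of *Epcam*, was named after its values were seen and fell by 0.77 on the log2 scale.

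Of 16 epithelial regulators, surface proteins and proteases tested, 9 were lower (56.2%, against 15.8% of all genes tested) and 1 was higher (median log2 fold change -0.61). edgeR called 2 higher, the second being *Ovol2*, named after its values were seen. *Cd24a*, a surface glycoprotein gene, fell from a mean of 1386 ± 1.13 normalized counts (SD, n = 2) to 342 ± 13.3 (log2 fold change -2.02 ± 0.13, SE). *Grhl1*, of the grainyhead family of epithelial transcription factors, fell by 1.72 on the log2 scale. *Esrp1*, the epithelial splicing regulator, fell by 1.15. *Spint1*, a protease inhibitor gene, rose by 0.42, and the most abundant gene of the list, *Spint2*, had a log2 fold change of 0.05 and did not pass. Setting chromosome medians to 0 gave -1.67 for *Cd24a*, -1.40 for *Grhl1*, -0.94 for *Esrp1* and 0.31 for *Spint1*.

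*Vim* encodes vimentin, the intermediate filament protein that is a common marker of mesenchymal cells. It fell more than 2-fold. The WT libraries gave 6681 and 6963 normalized counts for it, against 3159 and 3279 in KO-labelled libraries. Libraries of a group lay close together and the groups far apart. The fall was 2.12-fold (log2 fold change -1.08 ± 0.08, SE; DESeq2 adjusted p = 2.41e-42). Over the 12 alternatives it stayed between -1.19 and -1.05. *Vim* lies on chromosome 2 (13495554 to 13504453, plus strand), where the median gene had a log2 fold change of 0.11. *Vim* and *Epcam* were thus lower in the same libraries.

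Intermediate filament genes moved in both directions. Of 12 intermediate filament genes tested, 6 were lower and 2 higher (50% and 16.7%, against 15.8% and 16.4% of all genes tested). The median log2 fold change was -0.59. *Nefl* (neurofilament light chain), the most abundant of the list per kilobase, fell from a mean of 2162 ± 47.1 normalized counts (SD, n = 2) to 383 ± 20.04 (log2 fold change -2.49 ± 0.12, SE). *Krt19*, a keratin of epithelial cells, and the neuronal filament gene *Ina* fell by 1.92 and 1.14 on the log2 scale. *Prph* (peripherin) and *Des* (desmin, of muscle) rose by 0.94 and 0.80. Neuronal filament genes were among those in each direction.

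*Fn1* encodes fibronectin, a matrix protein that cells bind through integrins. It was the most abundant of the 10 genes by count and did not pass. The WT libraries gave 15007 and 15635 normalized counts for it, against 15141 and 14068 in KO-labelled libraries. The groups overlapped. The difference was -0.07 ± 0.07 (SE) on the log2 scale (95% interval -0.21 to 0.07; DESeq2 adjusted p = 0.515). *Fn1* is on chromosome 1 (71632094 to 71699774, minus strand), and a gene on the other strand covers 3.50% of its exonic bases.

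Integrins, the receptors of fibronectin and other matrix proteins, were close to the background in number. Of 14 subunit genes tested, 3 were higher and 2 lower (21.4% and 14.3%, against 16.4% and 15.8% of all genes tested; median log2 fold change -0.24). Without WT replicate 1 or without KO-labelled replicate 2, 1 was higher and 1 lower, and with chromosome medians set to 0, 1 was higher and 4 lower. *Itga5*, the alpha subunit of the main fibronectin receptor, rose from a mean of 3343 ± 67.0 normalized counts (SD, n = 2) to 4564 ± 66.1, or by 0.45 ± 0.08 (SE) on the log2 scale. Its partner *Itgb1*, the most abundant integrin gene per kilobase, had a log2 fold change of -0.16 with a DESeq2 adjusted p of 0.0829, and the adjusted p was 0.00243 with chromosome medians set to 0 (log2 fold change -0.27). *Itga3* and *Itga6* rose by 0.28 and 0.26, and neither passed with chromosome medians set to 0, without WT replicate 1 or without KO-labelled replicate 2. *Itga7* and *Itgb5* fell by 1.03 and 0.74 on the log2 scale. *Itgb5* was at -0.50 with chromosome medians set to 0. The call of *Itga7* was lost without WT replicate 1 or KO-labelled replicate 2, and its value was -0.69 with chromosome medians set to 0.

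Matrix genes other than collagens were more often lower than higher. Of 21 tested, 11 were lower and 4 higher (52.4% and 19%, against 15.8% and 16.4% of all genes tested). Fewer were lower without KO-labelled replicate 2. The median log2 fold change was -0.48. The laminin genes *Lama1* and *Lamb1*, whose products form the first basement membranes of the embryo, fell by 1.63 and 1.33 on the log2 scale. Their values were -1.49 and -1.01 with chromosome medians set to 0. *Lama1* went from 3393 ± 80.0 to 1099 ± 60.5 normalized counts (SD, n = 2). *Thbs1* (thrombospondin) fell by 1.75. *Fbln2*, *Vcan* and *Sparc*, all genes of secreted matrix proteins, rose by 0.90, 0.70 and 0.65 on the log2 scale. The most abundant of the list, *Spp1* (osteopontin), had a log2 fold change of -0.06 and did not pass.

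Among the 5 transcription factors, *Zeb1* had the most counts and was the only one that passed as higher. *Zeb1* encodes a zinc finger and homeodomain protein that represses *Cdh1* in other cells. The WT libraries gave 453 and 428 normalized counts for it, against 834 and 808 in KO-labelled libraries. The groups were far apart compared with the spread within each. The rise was 1.87-fold (log2 fold change 0.90 ± 0.15, SE; DESeq2 adjusted p = 1.84e-08). It stayed between 0.77 and 0.94 over the 12 alternatives. *Zeb1* lies on chromosome 18 (5591858 to 5775465, plus strand), where the median gene had a log2 fold change of 0.13.

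*Zeb2* (chromosome 2, 44839154 to 44972915, minus strand), its close relative, was near the lower limit of measurement. It had 38.5 and 37.0 normalized counts in WT and 19.2 and 23.5 in KO-labelled libraries. The groups did not overlap, but the log2 fold change of -0.82 ± 0.61 (SE) did not pass (DESeq2 adjusted p = 0.343). The log2 fold changes of *Zeb1* and *Zeb2* had opposite signs, and their 95% intervals (0.61 to 1.19 and -2.03 to 0.38) did not overlap.

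*Twist1* (chromosome 12, 34642536 to 34644682, plus strand) encodes a basic helix-loop-helix factor of mesoderm and neural crest. It fell in the test, from a low level. The WT libraries gave 67.6 and 80.6 normalized counts for it, against 35.7 and 29.7 in KO-labelled libraries. The groups did not overlap. The fall was 2.27-fold (log2 fold change -1.18 ± 0.47, SE; DESeq2 adjusted p = 0.0368). This call was the least firm of the 4. It was lost when any 1 of the 4 libraries was left out, and also with chromosome medians set to 0, where the log2 fold change was -0.86 (adjusted p = 0.174, in a range of 0.00592 to 0.371 over the alternatives). The median gene of chromosome 12 had a log2 fold change of -0.32.

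*Snai1* and *Snai2*, which encode zinc finger repressors of *Cdh1*, had few counts. *Snai1* lies on chromosome 2 (167363695 to 167368314, plus strand) and *Snai2* on chromosome 16 (14705945 to 14709488, plus strand). *Snai1* had 50.4 and 63.2 normalized counts in WT and 69.7 and 83.7 in the KO-labelled libraries, a log2 fold change of 0.43 ± 0.42 (SE; DESeq2 adjusted p = 0.493). Its groups did not overlap, yet the 95% interval, from -0.39 to 1.25, spans values on both sides of 0. A copy elsewhere in the genome covers 9.93% of its exonic bases. *Snai2* had 10.6 and 6.53 normalized counts in WT and 8.71 and 4.70 in the KO-labelled libraries, with a 95% interval from -2.71 to 2.00. Differences of *Snai2* within this interval are not excluded by these counts.

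**Figure D2:**
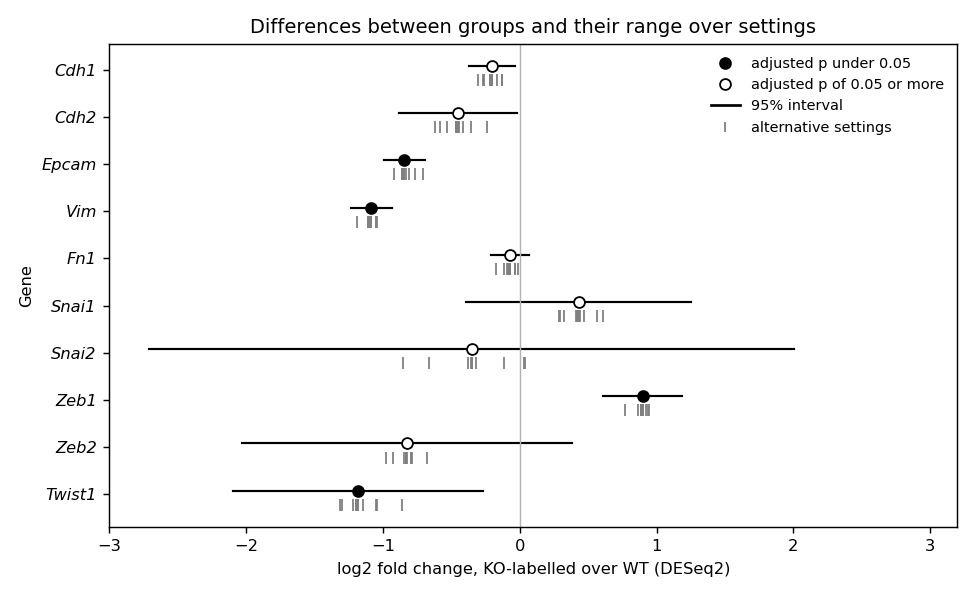
Log2 fold change of the 10 genes, KO-labelled over WT, from DESeq2 (dots, filled at an adjusted p under 0.05) with 95% intervals (lines) and the values under up to 12 alternative settings (grey ticks). *Epcam*, *Vim* and *Zeb1* keep all ticks well away from 0, while the intervals of *Snai1*, *Snai2*, *Zeb2* and *Fn1* cross it.

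Other transcription factors linked to EMT were then examined. Of 12 tested, 5 were lower and 0 higher by DESeq2 (41.7% and 0%, against 15.8% and 16.4% of all genes tested). The median log2 fold change was -0.47, and -0.22 with chromosome medians set to 0. At an unadjusted p under 0.05, 2 were higher, *Tcf12* and *Klf8*, named after their values were seen, with log2 fold changes of 0.22 and 0.17. edgeR called 1 higher, *Tcf12*, while 2 were higher with upper-quartile size factors and 1 with chromosome medians set to 0. *Snai3*, the third member of the SNAI family, had a higher level per kilobase than *Snai1* or *Snai2* and fell from a mean of 868 ± 51.8 normalized counts (SD, n = 2) to 238 ± 5.16 (log2 fold change -1.86 ± 0.16, SE). *Hmga2*, a chromatin protein gene, fell by 1.49 on the log2 scale, and by 1.14 with chromosome medians set to 0. *Wwtr1*, which encodes the Hippo pathway coactivator TAZ, fell by 1.05. *Tcf3*, an E-box binding partner of TWIST proteins and the most abundant of the list, fell by 0.57 on the log2 scale. Its chromosome (10) had a median of -0.35, and with chromosome medians set to 0 the value for *Tcf3* was -0.22.

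Levels per kilobase of exon ordered the 10 genes within a group. In WT the order was *Epcam* (5592 and 5649 normalized counts per kilobase), *Vim* (2861 and 2982), *Fn1* (1799 and 1874) and *Cdh1* (1133 and 1243), with no overlap between neighbours. *Twist1* (41.8 and 49.9), *Zeb1* (46.7 and 44.1) and *Cdh2* (35.3 and 45.9) followed and overlapped each other, and *Snai1* (31.1 and 39.0) overlapped *Cdh2*. *Snai2* (5.22 and 3.22) and *Zeb2* (2.50 and 2.41) came last. In the KO-labelled libraries *Vim* (1353 and 1404) stood below *Fn1* (1815 and 1686), and *Zeb1* (85.9 and 83.2) stood above *Snai1* (43.0 and 51.7), *Cdh2* (31.6 and 27.9) and *Twist1* (22.1 and 18.4), again without overlap between neighbours. Exonic length counts the exons of every annotated transcript, so levels of genes with long rare exons are understated.

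Signals and effectors of EMT were examined last. Of 13 genes of the TGF-beta pathway, a main inducer of EMT, 3 were higher and 5 lower. These are 23.1% and 38.5%, against 16.4% and 15.8% of all genes tested. The median log2 fold change was -0.23. With chromosome medians set to 0, 2 were higher and 3 lower, with a median of -0.13. With any 1 library left out, 0 or 1 were higher and 2 or 3 lower, so these counts are not firm. The ligand gene *Tgfb1* rose from a low mean of 29.4 ± 7.77 normalized counts (SD, n = 2) to 81.5 ± 17.8 (log2 fold change 1.46 ± 0.48, SE), a call that was lost without either WT library or without KO-labelled replicate 2. *Smad2* and the inhibitor *Smad7*, the most abundant of the list, rose by 0.36 and 0.24. *Smad2* did not pass without WT replicate 2 or KO-labelled replicate 2 (0.23 with chromosome medians set to 0), and *Smad7* did not pass with chromosome medians set to 0, without WT replicate 1 or without either KO-labelled library. *Ltbp1* (which stores the ligand in the matrix), *Smad3* and the receptor *Tgfbr1* fell by 1.03, 0.51 and 0.39 on the log2 scale. *Smad3* did not pass without WT replicate 2, and *Tgfbr1* did not pass without KO-labelled replicate 2 or with chromosome medians set to 0 (-0.18).

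Of 19 matrix proteases and mesenchymal effectors tested, 8 were lower and 3 higher (42.1% and 15.8%, against 15.8% and 16.4% of all genes tested). The median log2 fold change was -0.30. *Tagln*, the gene of an actin-binding protein of contractile cells, fell from a mean of 612 ± 72.2 normalized counts (SD, n = 2) to 138 ± 17.0 (log2 fold change -2.14 ± 0.20, SE). *Ctgf* and *Cyr61*, which encode secreted matrix proteins, fell by 2.06 and 1.62 on the log2 scale. Both were at -1.71 with chromosome medians set to 0. The protease inhibitor gene *Timp2* and the membrane protease gene *Mmp14* rose by 1.61 and 0.46 on the log2 scale, the latter not passing without KO-labelled replicate 2. *Timp1*, the most abundant of the list per kilobase, had a log2 fold change of -0.20 and did not pass, although it did with edgeR (-0.22).

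Over the 10 lists together, 63 of 151 genes tested were lower and 19 higher (41.7% and 12.6%), against 15.8% and 16.4% of all genes tested. The lists were not tested as sets, and the share that passes depends on the count, as given above.

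**Figure D3:**
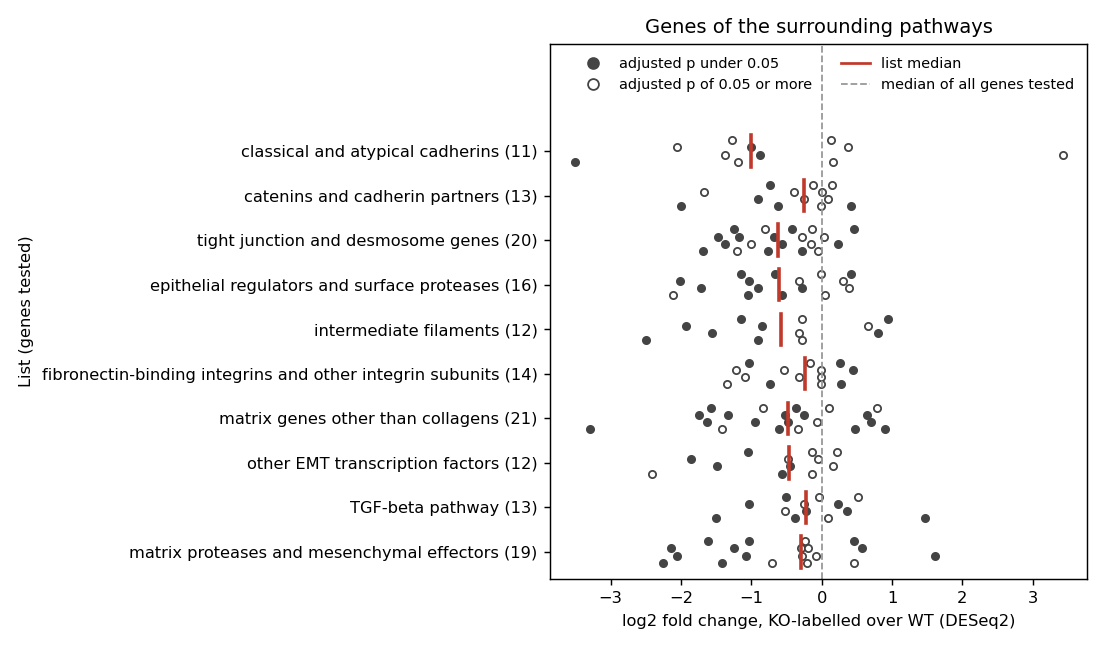
Log2 fold change, KO-labelled over WT, of every tested gene in 10 lists around the EMT genes (filled dots at an adjusted p under 0.05), with the list medians (red lines) and the median of all genes tested (dashed line). All 10 list medians, from -1.005 to -0.23, lie below the dashed line. The lowest is that of the cadherins, most of which had few counts.

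Markers of other cell types differed between the groups as well. For comparison, 15.8% of all genes tested were lower and 16.4% higher. The 8 primitive endoderm markers summed to 606 and 639 normalized counts in WT and 302 and 259 in the KO-labelled libraries, and 3 of 6 tested (*Gata4*, *Sox7*, *Cubn*) were lower. *Gata4* did not pass without WT replicate 2 or KO-labelled replicate 2, nor *Cubn* without WT replicate 1. The 8 markers of primitive streak and mesoderm summed to 1181 and 1187 against 496 and 524, with *T* and *Eomes* lower of 5 tested. The 8 trophoblast markers, which share *Eomes* with the streak list and *Krt7* with the filaments, summed to 4965 and 5102 against 3954 and 4156, with 4 of 6 tested lower, of which *Cdx2* and *Krt7* did not pass when any 1 library was left out. The 7 matched markers of neural crest and neuroectoderm summed to 2385 and 2540 against 1828 and 1813, with 1 higher (*Tfap2a*) and 1 lower (*Pax6*) of 6 tested. The call of *Tfap2a* was lost without either WT library and with halved counts. Most of the trophoblast sum was *Tfap2c*, with 3898 and 4067 in WT against 3534 and 3751, which did not pass. *Foxd3* and *Nes* made up most of the neural sum, and neither passed. *Tfap2c* and *Nes* did pass with chromosome medians set to 0, and *Nes* also with edgeR. The 8 fibroblast markers summed to 211 and 222 against 471 and 538. Most of that difference was *Thy1*, the 1 of 5 tested that was higher, and the other 7 summed to 92.8 and 84.9 against 115 and 124. *Lum* and *Postn* had no more than 3 counts in any library. No listed marker was at 0 in all 4 libraries. These lists are small beside the pluripotency sum, and their part in the changes of *Epcam*, *Vim*, *Zeb1* and *Twist1* was not tested.

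**Figure D4:**
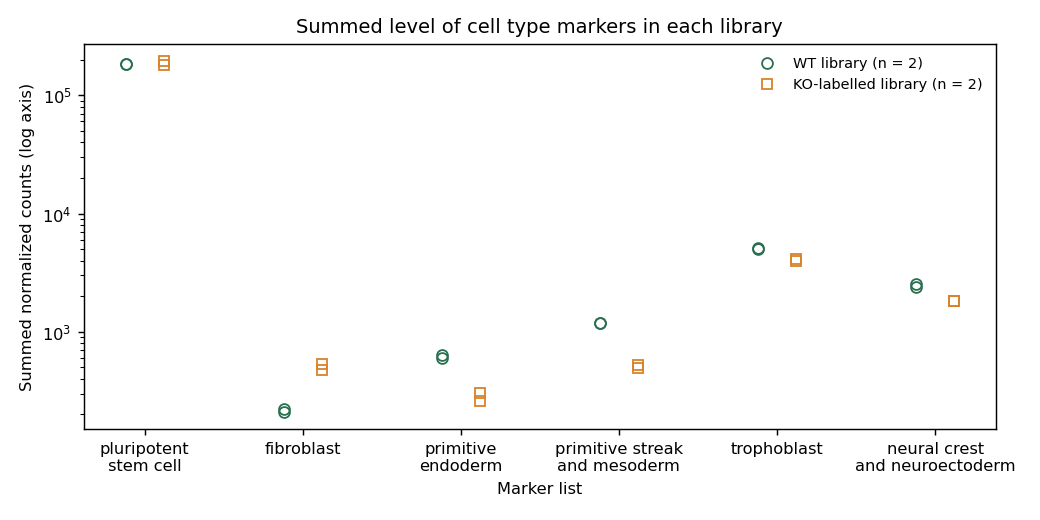
Summed normalized counts (log axis) of 6 marker lists in each WT library (circles) and KO-labelled library (squares). The pluripotency sums overlap between groups, the fibroblast sums are higher in the KO-labelled libraries, mostly through *Thy1*, and the other 4 lists are lower there.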

How the data were processed

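Per the labels and the study's methods, RNA was depleted of ribosomal RNA, stranded libraries were sequenced as paired 75-base reads, and the authors mapped reads to mm9 with STAR and assigned them to GENCODE vM1 genes with featureCounts. The deposited table holds unnormalized counts, 1 value per gene and library. Versions, the strand setting and the treatment of multiply mapped reads are not given in the sources used here. Values from 1 to 20 were even in 64.0% to 66.5% of cases per library, and whether both reads of a pair were counted is not stated. An alternative with halved counts was therefore added after seeing the data.

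Symbols, positions (1-based) and exonic lengths came from GENCODE vM1 on NCBIM37 (mm9), which matched all 37310 identifiers. Copies were sought with BLAST 2.17.0 (at least 75 bases at 95% identity). The test was DESeq2 1.42.0 in R 4.3.3 (Wald test with group as the factor, size factors and independent filtering at their defaults). Values per gene are means of 2 libraries, and intervals are the estimate plus or minus 1.96 SE. edgeR 4.0.16 was an alternative. Both Tcfap2a and Tcfap2c were matched as older symbols, and Sox1 had no match. Genes outside the 10 were named by rule: up to 3 per direction and list with an adjusted p under 0.05, a mean of at least 50 and the largest change, plus the most abundant per kilobase, with exceptions marked. Some genes that the rule names are not reported here. The genes, lists and tests were chosen with earlier results of these data known.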

Additional observations from a re-analysis of the deposited data

How the results depend on the processing

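*Epcam*, *Vim* and *Zeb1* kept their direction and their call, and *Fn1*, *Snai1* and *Zeb2* their direction without a call, under all 12 alternatives: TMM and upper-quartile size factors, edgeR, a low-count filter, no independent filtering, the replicate block, chromosome medians set to 0, halved counts (added after seeing the data) and each library left out. *Cdh1* passed with edgeR (-0.22), with the low-count filter (-0.22) and with chromosome medians set to 0 (-0.31), and *Cdh2* passed with edgeR (-0.47) and with chromosome medians set to 0 (-0.58). *Twist1* no longer passed without independent filtering (-1.18), with the replicate block (-1.18), with halved counts (-1.22), with chromosome medians set to 0 (-0.86) or with any library left out (-1.31 to -1.04). *Snai2* turned to 0.038 without WT replicate 1 and to 0.03 without KO-labelled replicate 2, and ranged from -0.86 to 0.04. *Snai2* had too few counts for the edgeR fit and the low-count filter. Fits without a library assume that the lone library of a group varies like the others. Of the 10 genes, 5 were lower with edgeR, and 0 were higher and 1 lower at the study's thresholds. Those thresholds gave 241 higher and 558 lower genes over the whole table and 1 and 30 in the pathway lists, as their construction implies. Leaving out single libraries gave 1563 to 1815 higher and 1572 to 1737 lower genes over the table and 12 to 17 and 46 to 52 in the lists, where 12 is the value without KO-labelled replicate 2. Of the counts of single lists under alternatives, 30 moved by over 1.5 times and 210 did not. The log2 ratio of *Cdh1* to *Cdh2* moved from 0.11 to 0.36 as single libraries were left out. The causes were not tested.

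The numbers 1 and 2 in the labels mark no known pairing, and the correlation of deviations between libraries sharing a number was -0.018. A replicate block in the fit left 1857 higher and 1973 lower genes, compared with 2909 and 2805 without it, and *Twist1* alone of the 10 lost its call. Of the other genes named, *Ctnnd2*, *Tjp1*, *Tgfb1*, *Smad7*, *Krt7* and *Zfp42* lost theirs, *Cdh13* had no adjusted p, and the TGF-beta list had 1 gene higher and 3 lower. Of the 10 genes, *Snai2*, *Zeb2* and *Twist1* had the fewest counts and the largest SEs.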
